A study of Rattus norvegicus with 3 samples.

Results

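Chemokines are small secreted proteins that guide the movement of leukocytes, and their receptors sit in the membranes of the cells that respond to them. They were described here in the rat's major salivary glands, on 3 arrays with 1 for each of the 3 glands. Members were chosen by name alone. A probe belonged to the set when its gene name began with Ccl, Cxcl, Ccr or Cxcr followed by a digit, or was Xcl1, Xcr1, Cx3cl1, Cx3cr1, Pf4, Ppbp or Ccrl2. This gave 51 probes for 45 genes of the 35737 gene names on the array. Of the 45 genes, 30 encode ligands and 15 encode receptors, and 6 genes had more than 1 probe.

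The glands came from male Wistar rats aged 10 weeks that were described as normal, and the design text names 3 rats. There was 1 array each for the sublingual gland, the submandibular gland and the parotid gland, and the labels do not say which animal or animals stand behind each array. Pieces of whole gland were taken, so ducts, acini, connective tissue, vessels and blood all contributed RNA. With 1 array per gland, no difference between glands could be set against the spread between animals, and no test was made. The errors these data hold are the scanner software's own error of each spot, which was 0.144 to 0.309 on the log2 scale for members well above background, and the spread of repeat spots of a probe. Its median SD was 0.0767 on the sublingual, 0.0775 on the submandibular and 0.0839 on the parotid array. A ± beside a difference below is the spot error of both arrays combined (n = 1 array per gland), and it covers neither animals nor labelling. The brightest members shared the lowest spot error, 0.144, on all 3 arrays. Their ± of 0.20 is therefore a fixed value of the software and not a measured spread.

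Chemokines fall into families named for the spacing of their first cysteines (CC, CXC, CX3C and XC), and most act through receptors coupled to the inhibitory G protein. In mucosal and glandular tissue some are made by the epithelium itself, among them Ccl28, which draws plasma cells that make IgA, and Cxcl14. Others are made mainly by leukocytes, endothelium or stromal cells, often after interferon or NF-kB signalling. The source of a transcript was not measured in these whole-tissue samples, and the sources given below are background knowledge. In such bulk samples, fewer cells of a type and less RNA per cell cannot be told apart.

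A level below is the log2 of the processed signal relative to the array's 75th percentile over probes, so a level of 0 is that percentile. Levels of different probes are not comparable with each other. The scanner software flags a spot as well above background, and 55.3% of all probes carried the flag on the sublingual, 52.8% on the submandibular and 55.0% on the parotid array. The lowest level with the flag was -3.74 on the sublingual, -3.65 on the submandibular and -3.43 on the parotid array. Where a probe was not well above background on 1 of the arrays compared, the higher of that floor and its own level was used, and the fold is a bound, written as "at least". Genes were counted as different when they lay at least 2-fold apart.

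The secretory genes set the parotid array apart from both others. All 8 serous markers were at least 2-fold lower than in parotid on the sublingual array, and all 8 also on the submandibular array, while mucous markers such as Muc19 and Agr2 were high on both. Products of the granular ducts, which mark the rodent submandibular gland, were not clearly raised under the submandibular label. Egf was at 1.61 in sublingual, 2.02 in submandibular and 2.62 in parotid, and 0 of 6 granular duct markers were at least 2-fold higher in submandibular than in parotid. All 5 that could be compared with sublingual were lower there than in submandibular, 1 of them at least 2-fold. That 1 was Smr3b, which was well above background in submandibular only, at -2.66, and at least 2.11-fold lower in sublingual. The array is therefore called submandibular-labelled here, and this uncertainty of its label applies to every result that follows.

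Of the 45 members, 24 (53.3%) were well above background on the sublingual, 20 (44.4%) on the submandibular-labelled and 27 (60%) on the parotid array. The same shares over all genes were 54.7%, 52.3% and 54.4%. In all, 29 members were well above background on at least 1 array, made up of 23 ligands and 6 receptors, and 18 were so on all 3. The other 16 were not well above background on any array. They were the ligands Ccl4, Ccl9, Ccl12, Ccl17, Ccl25, Cxcl5 and Cxcl7 and the receptors Ccr2, Ccr3, Ccr4, Ccr6, Ccr7, Ccr8, Ccr9, Cxcr3 and Xcr1. For these genes a level under the detection limit could not be told from no transcript.

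In sublingual against parotid, 6 of the 29 members compared were at least 2-fold higher (20.7%, beside 11.2% of all genes compared) and 9 were at least 2-fold lower (31%, beside 12.9%). In submandibular-labelled against parotid, 2 of 28 were at least 2-fold higher (7.14%, beside 9.72%) and 12 were at least 2-fold lower (42.9%, beside 13.9%). In sublingual against submandibular-labelled, 2 of 25 were at least 2-fold higher (8%, beside 1.77%) and 0 were at least 2-fold lower (beside 0.586%). Some of these folds are bounds: 1 of the 6 and 4 of the 9 against parotid in sublingual, 6 of the 12 in submandibular-labelled, and 1 of the 2 between these glands. A member that was well above background in parotid only could not come out higher in another gland, so the 18 members well above background on all 3 arrays are also given by themselves. Of these, 5 were at least 2-fold higher (27.8%, beside 11.4% of the 17147 genes so measured) and 3 were lower (16.7%, beside 10.1%) in sublingual than in parotid. In submandibular-labelled, 2 were higher (11.1%, beside 9.42%) and 6 were lower (33.3%, beside 10.9%) than in parotid. Between sublingual and submandibular-labelled, 1 of the 18 was higher (5.56%, beside 1.41%) and 0 were lower (beside 0.379%). The median difference of the 18 from parotid was -0.63 in sublingual and -0.77 in submandibular-labelled, beside 0.06 and 0.05 for all 17147 genes. At 4-fold, 1 member was higher (Cxcl4, beside 2.65% of all genes) and 2 were lower (Cxcl9 and Cxcl10, beside 2.76%) in sublingual than in parotid. In submandibular-labelled, 0 were 4-fold higher (beside 2.55%) and 5 were 4-fold lower than in parotid (Ccl2, Ccl7, Cxcl1, Cxcl9 and Cxcl12, beside 3.19%). Centring the arrays on their medians moved all differences from parotid up by 0.24 in sublingual and by 0.31 in submandibular-labelled.

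**Figure D1:**
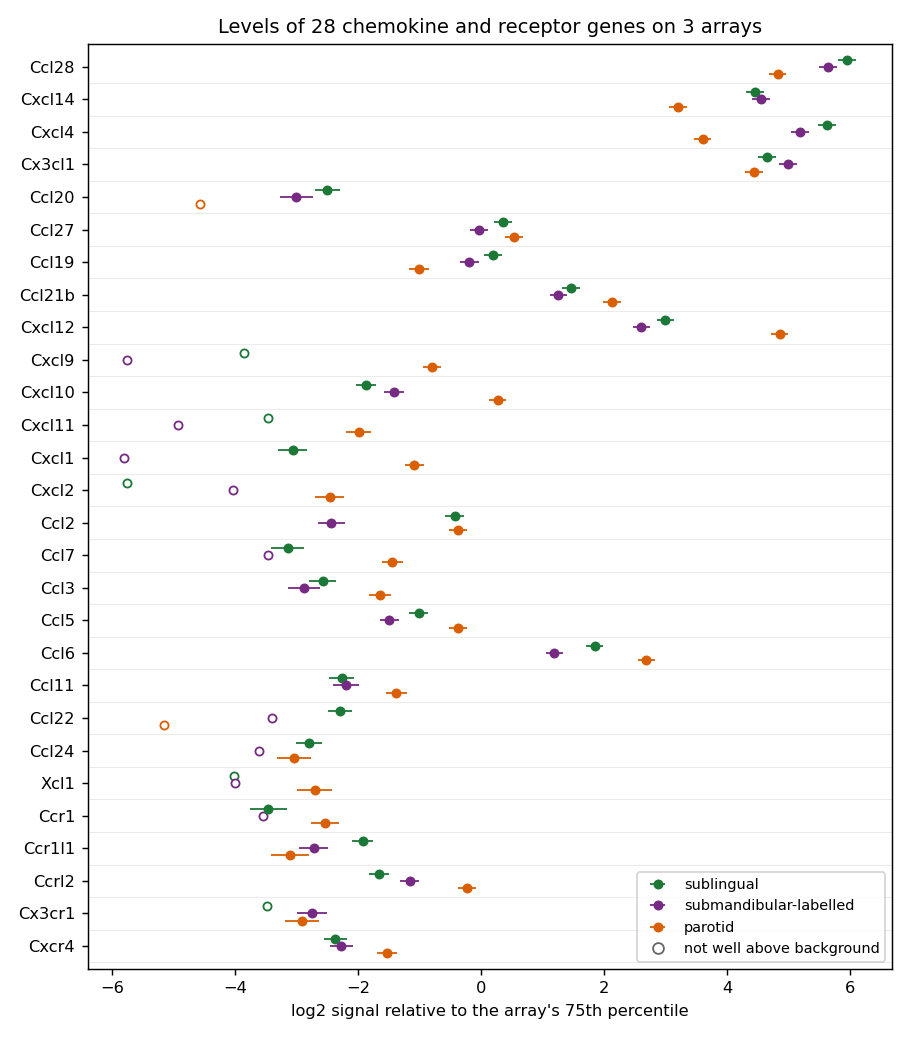
Level of 28 of the 29 detected members (rows) on the log2 scale relative to the array's 75th percentile (horizontal axis) on the sublingual, submandibular-labelled and parotid arrays; bars are the scanner software's spot error and open symbols are spots not well above background. Cxcl4, Cxcl14 and Ccl28 lay lowest in parotid, while Cxcl12, Cxcl9 and Cxcl10 lay highest in parotid.

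The members grouped here under epithelial sources had differences from parotid above 0 for 4 of the 5 compared in sublingual and 4 of 5 in submandibular-labelled. The sublingual difference of Cx3cl1 went to -0.15 with quantile normalization. This grouping rests on background knowledge, and an epithelial source of members placed in other groups was not examined. Of the 6 such members, 5 were detected (all but Ccl25). Against parotid in sublingual, 2 of these 5 were at least 2-fold higher (beside 11.2% of all genes) and 0 lower (beside 12.9%). In submandibular-labelled, 1 was higher (beside 9.72%) and 0 lower (beside 13.9%). Ccl28 had levels of 5.95 in sublingual, 5.64 in submandibular-labelled and 4.82 in parotid. It was highest in sublingual and lowest in parotid, with a difference of 1.13 ± 0.20 in sublingual (2.19-fold) and 0.82 ± 0.20 in submandibular-labelled (1.77-fold). The probe lies at chr2:51712815-51712874 (rn4), and quantile normalization took the sublingual difference under 2-fold. Ccr10, a receptor of Ccl28, is not a member because the array names its probe Gpr2. That probe was at -1.43 in parotid and not well above background in submandibular-labelled, and its sublingual spot was left out for its outlier flag. Cxcl17, a chemokine of mucosal epithelium that the array also lists under an older name, ran against the epithelial members, at -0.48 in sublingual, 0.06 in submandibular-labelled and 1.46 in parotid. It was 3.84-fold lower than in parotid in sublingual and 2.65-fold lower in submandibular-labelled, and a second, dimmer probe was at least 1.69-fold and 1.37-fold lower.

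Cxcl14 is an epithelial CXC chemokine that is expressed without stimulation in many epithelia. Its levels were 4.46 in sublingual, 4.55 in submandibular-labelled and 3.21 in parotid (chr17:14291546-14291605, rn4). It was higher than in parotid by 1.25 ± 0.20 in sublingual (2.38-fold) and by 1.34 ± 0.20 in submandibular-labelled (2.53-fold), and the sublingual difference fell under 2-fold with quantile normalization. Between sublingual and submandibular-labelled the difference was -0.09 ± 0.20, smaller than its spot error. Cx3cl1, a chemokine tethered to the membrane of epithelium and endothelium, was at 4.65 in sublingual, 4.99 in submandibular-labelled and 4.44 in parotid, and no pair of arrays was 2-fold apart. Its second probe, which was dimmer, differed from parotid by 0.18 in sublingual and 0.87 in submandibular-labelled.

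Ccl20 attracts cells that carry Ccr6 and is made by inflamed epithelium. It was at -2.50 in sublingual and -3.01 in submandibular-labelled, and it was not well above background in parotid, which makes it at least 1.91-fold higher in sublingual and at least 1.35-fold higher in submandibular-labelled. Ccl27, known from the skin epithelium, was at 0.35 in sublingual, -0.03 in submandibular-labelled and 0.54 in parotid. Its differences stayed under 2-fold, and the sign of the one between sublingual and parotid depended on the scaling.

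Epithelial markers were mixed, with 7 of 10 above parotid in each of the other glands. Of the 10 epithelial markers, 5 were at least 2-fold higher and 0 lower in sublingual, and 5 were higher and 1 lower in submandibular-labelled. Cldn7, a tight junction protein, was at 2.19 in sublingual, 1.75 in submandibular-labelled and 0.54 in parotid, and the duct keratin gene Krt7 was at 7.15, 7.46 and 5.79 in the same glands. The defining marker Epcam ran the other way, at 3.83 in sublingual, 3.90 in submandibular-labelled and 4.63 in parotid, and so did Krt8 and Elf3. The summed signal of the list, most of it from Krt18, was 947 in sublingual, 1023 in submandibular-labelled and 567 in parotid, in units of the array's 75th percentile. What part this has in the levels of Ccl28 and Cxcl14 was not tested.

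Cxcl4, now named Pf4 (platelet factor 4), is stored in platelet granules and made by megakaryocytes. It was the member furthest above parotid: its levels were 5.63 in sublingual, 5.18 in submandibular-labelled and 3.60 in parotid (chr14:18812555-18812614, rn4). The difference from parotid was 2.03 ± 0.20 in sublingual (4.08-fold) and 1.58 ± 0.20 in submandibular-labelled (2.99-fold), and both stayed over 2-fold in every setting that was run. The other platelet chemokine, Cxcl7 (now Ppbp), was not well above background on any array. Of 6 probed platelet and megakaryocyte markers, 4 were detected, and 1 of these 4 was at least 2-fold higher than in parotid in sublingual and 1 in submandibular-labelled. Gp1bb, a subunit of the platelet von Willebrand factor receptor, was at -0.89 in sublingual, -0.80 in submandibular-labelled and -1.99 in parotid. Gp9, a subunit of the same receptor, ran the other way, at -2.38, -2.37 and -1.73 in the same glands, and Itgb3 was not well above background on any array. The summed signal of the list was 1.0 in sublingual, 0.9 in submandibular-labelled and 0.7 in parotid. Among markers of blood, Hbb, the haemoglobin beta chain, was at 1.43 in sublingual, 1.28 in submandibular-labelled and 2.08 in parotid, and Ahsp, which stabilises haemoglobin alpha chains, was at 1.07, 0.60 and -1.63. Of the 4 blood markers probed, 3 (Hbb, Alas2 and Slc4a1) were below parotid in both glands, and Ahsp was the 1 above it. The part of platelets or blood in the level of Cxcl4 was not tested.

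**Figure D2:**
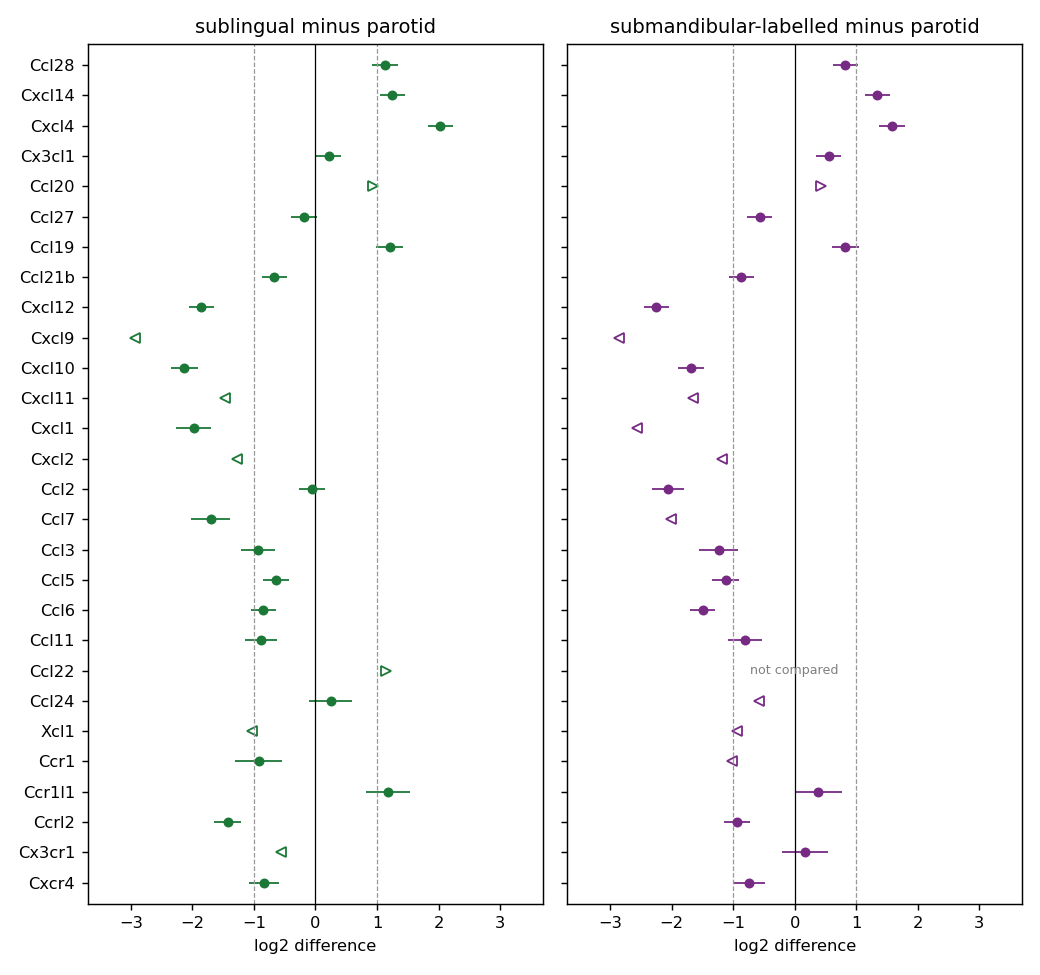
Difference of 28 of the 29 detected members from parotid on the log2 scale (horizontal axis) in sublingual and in submandibular-labelled; bars are the combined spot error, triangles are bounds, and dashed lines mark 2-fold. Cxcl4, Cxcl14 and Ccl28 lie to the right of 0 in both glands, and the interferon-inducible and neutrophil-attracting members lie to the left.

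The interferon-inducible CXC chemokines were lower than in parotid in both other glands. Cxcl9, Cxcl10 and Cxcl11 all bind Cxcr3 on activated T and NK cells, and all 3 were at least 2-fold lower than in parotid in sublingual and in submandibular-labelled. Cxcl9 was at -0.80 in parotid and not well above background in the other glands, so it was at least 7.67-fold lower in sublingual and at least 7.20-fold lower in submandibular-labelled. Cxcl10 was measured on all 3 arrays, at -1.86 in sublingual, -1.42 in submandibular-labelled and 0.27 in parotid. It differed from parotid by -2.13 ± 0.22 in sublingual (4.39-fold lower) and by -1.69 ± 0.22 in submandibular-labelled (3.22-fold lower). Cxcl11 was at -1.99 in parotid and dim elsewhere, which makes it at least 2.77-fold lower in sublingual and at least 3.15-fold lower in submandibular-labelled. With normexp background correction Cxcl11 came under 2-fold, while Cxcl9 and Cxcl10 stayed past it in every setting that gave them a value. Asking for a signal well above background on all 3 arrays left Cxcl9 without a value. The differences of Cxcl9 and Cxcl10 were smaller with normexp. They were -1.29 in sublingual and -1.41 in submandibular-labelled for Cxcl9, and -1.41 and -1.17 for Cxcl10. Their receptor Cxcr3 was not well above background on any array.

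The promoters of these 3 neighbours and of Cxcl1 are shown because the 4 genes were lower than in parotid together and because they are known targets of interferon and NF-kB signalling. Each is the 250 bases before the start site, 5′ to 3′ on the gene's strand, from RefSeq on build GRCr8: chr14:16006916-16007165, chr14:15988816-15989065 and chr14:15973478-15973727 on the plus strand and chr14:17479322-17479571 on the minus strand. Capitals mark matches on either strand to 3 motifs, and overlapping matches run together. The motif like the interferon-stimulated response element is GAAA, 2 free bases and GAAA again. The one like a STAT site is TTC, 3 free bases and GAA, and the one like a kappaB site is GGGA, 2 free bases and TTCC.
Cxcl9: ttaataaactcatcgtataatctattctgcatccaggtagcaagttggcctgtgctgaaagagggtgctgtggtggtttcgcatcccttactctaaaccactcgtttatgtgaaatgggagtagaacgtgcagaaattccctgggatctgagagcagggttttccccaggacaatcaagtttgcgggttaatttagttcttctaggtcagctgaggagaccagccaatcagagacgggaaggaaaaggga
Cxcl10: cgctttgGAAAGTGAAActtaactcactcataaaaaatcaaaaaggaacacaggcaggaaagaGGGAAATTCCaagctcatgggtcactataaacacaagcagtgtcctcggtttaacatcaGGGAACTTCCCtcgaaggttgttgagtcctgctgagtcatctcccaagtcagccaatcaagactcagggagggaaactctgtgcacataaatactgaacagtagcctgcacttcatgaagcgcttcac
Cxcl11: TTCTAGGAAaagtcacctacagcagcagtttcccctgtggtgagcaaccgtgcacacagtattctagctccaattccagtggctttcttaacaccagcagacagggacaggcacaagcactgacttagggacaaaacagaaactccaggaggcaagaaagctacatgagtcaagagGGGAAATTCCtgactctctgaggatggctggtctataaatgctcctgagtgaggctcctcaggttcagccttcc
Cxcl1: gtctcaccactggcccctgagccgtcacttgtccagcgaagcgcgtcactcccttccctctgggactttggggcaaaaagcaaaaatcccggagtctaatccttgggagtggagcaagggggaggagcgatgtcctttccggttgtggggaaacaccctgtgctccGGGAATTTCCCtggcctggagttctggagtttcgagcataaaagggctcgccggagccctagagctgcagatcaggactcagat

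Promoters of 34 of the 45 members were in the RefSeq table. The kappaB-like letters were in 6 of the 34 (Ccl7, Ccr3, Cxcl1, Cxcl5, Cxcl10 and Cxcl11), beside 1.08% of all 33469 promoters of that length. The interferon-type letters were in 2 of 34 (Ccl19 and Cxcl10, beside 3.41%), and the STAT-type letters in 4 of 34 (Ccl17, Ccl24, Ccr6 and Cxcl11, beside 7.67%). In Cxcl10 the interferon-type match begins at position -243 from the start site and the kappaB-like matches at -187, -128 and -127. No such letters were found in this window of Cxcl9. A match is a string of letters and not a measured site.

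Genes of the pathways that can induce these chemokines differed from parotid in both directions. Of 17 probed NF-kB and interferon response genes, 15 were detected, of which 0 were at least 2-fold higher and 3 lower (beside 12.9% of all genes) than in parotid in sublingual, and 1 was higher and 1 lower in submandibular-labelled. The 3 lower in sublingual, Mx1, Irf7 and Isg15, are all interferon response genes. Isg15, a ubiquitin-like interferon product, was at 0.78 in sublingual, 0.77 in submandibular-labelled and 1.80 in parotid. Irf7, a transcription factor of the interferon response, was at 0.93, 1.21 and 2.11 in the same glands. The median of the list was -0.28 in sublingual and -0.25 in submandibular-labelled against parotid. Il4ra, a subunit of the interleukin-4 receptor, was 5.54-fold higher than in parotid in sublingual and 6.56-fold higher in submandibular-labelled, and Il6ra was 2.65-fold and 1.65-fold lower. Of the inducing cytokines, Ifng, Tnf and Il6 were not well above background on any array.

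Of the 4 neutrophil-attracting members, which carry the ELR motif before the first cysteine, Cxcl1 and Cxcl2 were detected, and both were highest in parotid. Cxcl1 was at -3.06 in sublingual, was not well above background in submandibular-labelled and was at -1.08 in parotid. It was lower than in parotid by 3.94-fold in sublingual (difference -1.98 ± 0.29) and by at least 5.91-fold in submandibular-labelled. Cxcl2 was well above background in parotid only, at -2.46, and was at least 2.42-fold lower in sublingual and at least 2.28-fold lower in submandibular-labelled. Cxcl2 lost both calls with normexp correction, and its submandibular-labelled call also with median centring and with quantile normalization. Cxcl1 kept both calls in every setting that gave it a value, although normexp gave it -1.07 in sublingual and -1.32 in submandibular-labelled. Of the neutrophil markers, S100a8 and S100a9, calcium-binding proteins of neutrophil granules and cytosol, were well above background in parotid only, at -2.42 and -2.59, while Ngp was at -2.90 in sublingual, -2.08 in submandibular-labelled and dim in parotid.

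Cxcl12 binds Cxcr4 and is known as a product of stromal fibroblasts and endothelium. It was at 3.00 in sublingual, 2.61 in submandibular-labelled and 4.85 in parotid (chr4:153510217-153510276, rn4). The difference from parotid was -1.86 ± 0.20 in sublingual (3.62-fold lower) and -2.25 ± 0.20 in submandibular-labelled (4.74-fold lower). A second probe of the gene gave -1.66 in sublingual and -1.36 in submandibular-labelled, so both probes lay past 2-fold and the order of these glands turned round between them. Cxcr4 was at -2.37 in sublingual, -2.27 in submandibular-labelled and -1.53 in parotid, under 2-fold for each pair. The atypical Cxcl12 receptor Ackr3 (Cmkor1 on the array) was at -0.40, -0.18 and -0.10, with no pair 2-fold apart.

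Most fibroblast and endothelial markers were lower beside it, 7 of 8 and 8 of 9 compared in each gland. The exceptions were Fbln1 (1.35-fold higher than in parotid in both glands) and Vwf (1.12-fold higher in sublingual and 1.42-fold in submandibular-labelled). Of 8 fibroblast markers, 4 were at least 2-fold lower and 0 higher than in parotid in sublingual (beside 12.9% and 11.2% of all genes). In submandibular-labelled, 4 were lower and 0 higher (beside 13.9% and 9.72%). Postn, well above background in parotid only, enters both counts as a bound. Col1a1, a chain of type I collagen, was at 4.82 in sublingual, 4.44 in submandibular-labelled and 6.51 in parotid. The summed signal of the list, most of it from Col1a1, Col1a2 and Col3a1, was 79.9 in sublingual, 68.9 in submandibular-labelled and 201 in parotid. Of 9 endothelial markers detected, 6 were at least 2-fold lower in sublingual (beside 12.9% of all genes) and 3 in submandibular-labelled (beside 13.9%). The 3 in submandibular-labelled (Tie1, Flt1 and Robo4) are all bounds, and no endothelial marker measured on both arrays reached 2-fold there. In sublingual, Tie1 and Flt1 are bounds. The summed signals of the endothelial list, mostly from Kdr, were 12.6, 10.9 and 20.3. What part these cells have in the level of Cxcl12 was not tested.

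Among the chemokines of lymphoid homing, Ccl19 and Ccl21 share the receptor Ccr7 but did not share a direction. Ccl19 was at 0.19 in sublingual, -0.19 in submandibular-labelled and -1.01 in parotid, higher than in parotid by 1.21 ± 0.22 in sublingual (2.31-fold) and by 0.82 ± 0.22 in submandibular-labelled (1.77-fold). Ccl21b, now Ccl21, was at 1.46 in sublingual, 1.26 in submandibular-labelled and 2.13 in parotid, lower by 0.67 ± 0.20 and 0.87 ± 0.20 on the log2 scale than in parotid. The sublingual call of Ccl19 was lost with normexp correction. Of 9 probed markers of lymphoid stroma and high endothelial venules, 2 were detected. Ltb, a lymphotoxin subunit, was at 0.71 in sublingual, 0.92 in submandibular-labelled and 1.33 in parotid, and Glycam1, Madcam1, Chst4 and Cr2 were not well above background on any array, nor was Ccr7.

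The CC chemokines that attract monocytes and macrophages were below parotid in both glands, further so in submandibular-labelled. All 7 detected genes of this group of 11 had differences below 0 against parotid. At least 2-fold lower were 1 of the 7 in sublingual (beside 12.9% of all genes) and 6 in submandibular-labelled (beside 13.9%). The submandibular-labelled calls of Ccl7 and Ccr1 are bounds. Ccl6, a rodent chemokine of myeloid cells, was at 1.85 in sublingual, 1.20 in submandibular-labelled and 2.69 in parotid, or 1.79-fold and 2.82-fold lower than in parotid. Ccl5, made by T cells, was at -1.01, -1.49 and -0.37 (1.56-fold and 2.17-fold lower), and Ccl3, made by activated macrophages, was at -2.58, -2.88 and -1.64 (1.91-fold and 2.35-fold lower). The submandibular-labelled calls of Ccl3 and Ccl5 were lost with normexp correction or with median centring, and that of Ccl6 was kept in every setting.

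Ccl7, a monocyte attractant close to Ccl2 in sequence and position, was at -3.14 in sublingual, was not well above background in submandibular-labelled and was at -1.44 in parotid. It was 3.25-fold lower in sublingual and at least 4.05-fold lower in submandibular-labelled. Its second probe gave 1.41-fold lower and at least 1.96-fold lower, under the 2-fold line, and normexp correction ended both calls.

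Ccl2, the main attractant of Ccr2-bearing monocytes, was the member that separated sublingual from submandibular-labelled. Its probe was spotted 10 times on each array. The 10 spots ran between -0.60 and -0.27 in sublingual, between -2.70 and -2.20 in submandibular-labelled and between -0.57 and -0.16 in parotid, with means of -0.43 ± 0.12, -2.43 ± 0.18 and -0.37 ± 0.11 (SD, n = 10 spots of 1 array). The submandibular-labelled spots lay below all spots of both other arrays, and the sublingual and parotid spots overlapped. Ccl2 was 4.01-fold higher in sublingual than in submandibular-labelled, while it was 1.04-fold apart between sublingual and parotid, with a sign that depended on the setting. It was 4.17-fold lower in submandibular-labelled than in parotid. The fold depended on the background correction: with normexp the difference between sublingual and submandibular-labelled was 1.06, and that between submandibular-labelled and parotid was -1.14. At a 4-fold threshold it was the 1 member called between sublingual and submandibular-labelled, beside 0.14% of all genes in that direction, and 0 were 4-fold lower (beside 0.0801%). That 4-fold call was lost with normexp, median centring and quantile normalization (differences of 1.06, 1.93 and 1.93). The spots share 1 RNA sample and 1 labelling per array, so their spread says nothing of animals.

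**Figure D3:**
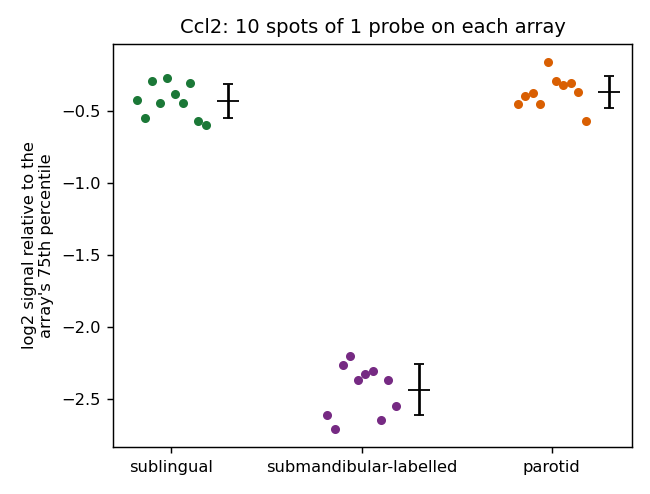
Level of Ccl2 (vertical axis, log2 relative to the array's 75th percentile) at each of its 10 spots on the sublingual, submandibular-labelled and parotid arrays, with the mean and SD of the spots beside them. The submandibular-labelled spots, between -2.70 and -2.20, lie below all others.

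Il1b, a cytokine that can induce Ccl2, had a like order of glands, at -0.48 in sublingual, -1.58 in submandibular-labelled and -0.52 in parotid. It was 1 of 16 probed cytokines and cytokine receptors, of which 9 were detected. Its receptor Il1r1 ran the other way: it was well above background in submandibular-labelled only, at -2.40, at least 2.44-fold lower in sublingual than there and at least 2.04-fold higher there than in parotid. The macrophage marker Cd68, a lysosomal protein, was at 1.58, 1.77 and 2.26 in the same glands, and the macrophage lectin Mrc1 was at 0.54, -0.21 and 0.65. The receptor Ccr2 was not well above background on any array. The link between any of these and Ccl2 was not tested.

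Of the 7 members of type 2 and eosinophil responses, 3 were detected. Ccl11 (eotaxin) was at -2.26 in sublingual, -2.19 in submandibular-labelled and -1.38 in parotid, with no pair 2-fold apart. Ccl24, which also acts on Ccr3, was at -2.79 in sublingual, not well above background in submandibular-labelled and at -3.04 in parotid, and its folds and bounds were under 2. Ccl22 had a pair of probes that disagreed. The one with the higher mean was well above background in sublingual only, at -2.29, or at least 2.21-fold above parotid and at least 2.16-fold above submandibular-labelled. The other was well above background in parotid only, at -2.79, and at least 1.93-fold lower in sublingual, so the direction of Ccl22 is not settled by these data. Xcl1, a product of cytotoxic cells, was at -2.71 in parotid and dim elsewhere, at least 2.04-fold lower in sublingual and at least 1.92-fold lower in submandibular-labelled. Its sublingual call was lost with normexp correction, median centring or quantile normalization.

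Of the 15 receptors, 5 were well above background on the sublingual, 5 on the submandibular-labelled and 6 on the parotid array. Ccrl2, an atypical receptor that binds chemerin without signalling, was at -1.65 in sublingual, -1.16 in submandibular-labelled and -0.23 in parotid. It was 2.69-fold lower than in parotid in sublingual (difference -1.43 ± 0.22) and 1.91-fold lower in submandibular-labelled. Normexp correction took the sublingual difference under 2-fold. Ccr1, which binds Ccl3, Ccl5 and Ccl7, was at -3.46 in sublingual, dim in submandibular-labelled and at -2.53 in parotid, or 1.90-fold lower than in parotid in sublingual and at least 2.02-fold lower in submandibular-labelled, a call lost with normexp correction, median centring or quantile normalization.

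Ccr1l1, a receptor gene next to Ccr1, was the detected receptor furthest above parotid. It was at -1.93 in sublingual, -2.72 in submandibular-labelled and -3.11 in parotid, 2.27-fold higher than in parotid in sublingual (difference 1.18 ± 0.35) and 1.31-fold higher in submandibular-labelled. Normexp correction took the sublingual difference to 0.30. Cx3cr1, the fractalkine receptor of patrolling monocytes and NK cells, was not well above background in sublingual and was at -2.75 in submandibular-labelled and -2.92 in parotid.

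Leukocyte markers were not shifted alike. Of the 8 probed general leukocyte markers, 7 were detected. Against parotid, 6 of these 7 were lower and 1 (Cd52) was higher in each of the other glands, bounds included. The median difference was -0.63 in sublingual and -0.54 in submandibular-labelled. The summed signal of the list was 20.0 in sublingual, 20.7 in submandibular-labelled and 28.7 in parotid. Laptm5, a lysosomal membrane protein of leukocytes, was at 3.60 in sublingual, 3.69 in submandibular-labelled and 4.23 in parotid, while Cd52 went the other way, at 0.77 in sublingual, 0.32 in submandibular-labelled and not well above background in parotid. T cell markers were lower: of 8 detected among 14 probed, 7 were at least 2-fold lower than in parotid in sublingual and 7 in submandibular-labelled, with summed signals of 4.18, 3.68 and 7.58. Cd3g, a chain of the T cell receptor complex, was at -0.65 in sublingual, -1.63 in submandibular-labelled and 0.72 in parotid, but Cd3e, Cd2, Cd4, Cd5 and Cd28 were not well above background on any array.

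Plasma cells are among the cells that Ccl28 draws, and their markers were highest in parotid, where Ccl28 was lowest. The joining chain gene Igj, which links IgA units, was at 1.54 in sublingual, 1.13 in submandibular-labelled and 3.32 in parotid, and Tnfrsf17, a survival receptor of plasma cells, was at 0.43, -0.90 and 1.66. All 3 detected B and plasma cell markers of 8 probed were at least 2-fold lower than in parotid in both glands, with summed signals of 4.67 in sublingual, 2.99 in submandibular-labelled and 14.3 in parotid, and Cd79b and Ms4a1 were not well above background on any array. Of 11 macrophage markers detected among 12 probed, 2 were at least 2-fold lower in sublingual (beside 12.9% of all genes). In submandibular-labelled 2 were so (beside 13.9%), and the summed signals were 67.4, 62.9 and 78.0. At any size of difference, 9 of the 11 were below parotid in sublingual and 10 in submandibular-labelled. Aif1 was above parotid in both glands, at 3.99, 3.62 and 3.46, and Tyrobp was above it in sublingual. Emr1, an adhesion receptor of macrophages, was at -1.49 in sublingual, -1.56 in submandibular-labelled and 0.11 in parotid. Mast cell markers summed to 5.5 in sublingual, 5.5 in submandibular-labelled and 11.6 in parotid, with 3 of 5 compared at least 2-fold lower in sublingual and 2 of 6 in submandibular-labelled. The part of these cells in the members' levels was not tested.

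**Figure D4:**
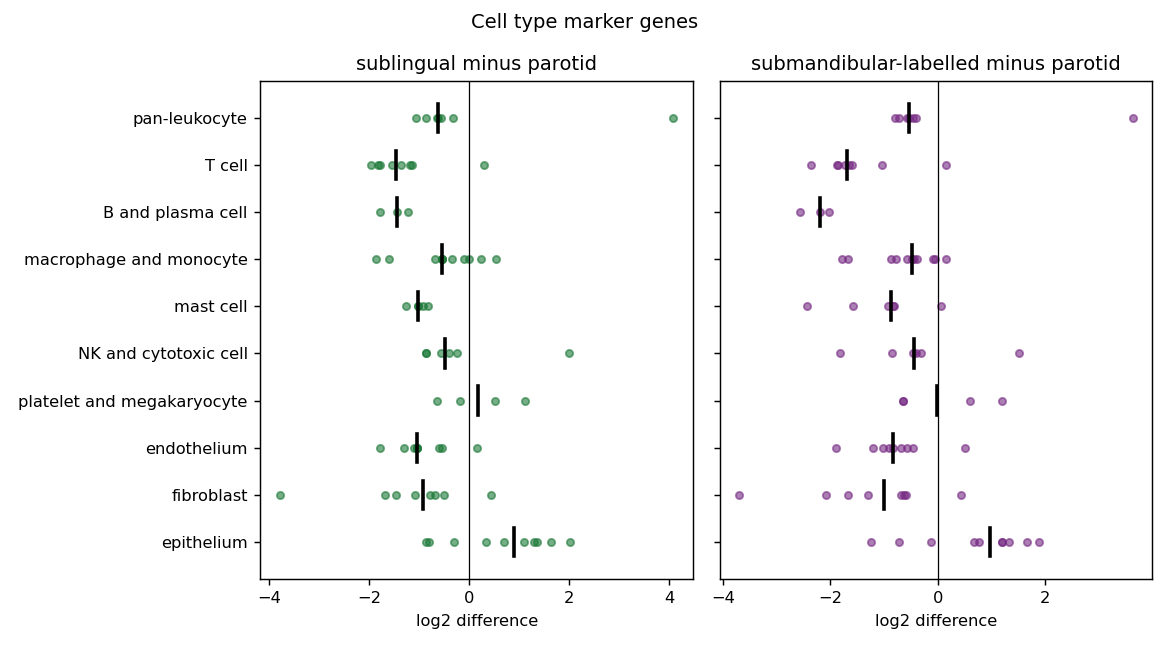
Difference from parotid on the log2 scale (horizontal axis) of the genes of each marker list (rows) in sublingual and in submandibular-labelled; each point is a gene, bounds included, and each black bar is the median of its list. The medians of the T cell, B and plasma cell and fibroblast lists lie left of 0 in both glands, and that of the epithelial list lies right of 0.

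Genes downstream of the receptors differed in both directions. Of 26 probed signalling genes, 21 were detected, of which 2 were at least 2-fold higher and 4 lower than in parotid in sublingual, and 2 higher and 2 lower in submandibular-labelled. Rac2, a GTPase of leukocyte migration, was at 0.99 in sublingual, 1.15 in submandibular-labelled and -0.76 in parotid. Arrb1, an arrestin that uncouples receptors, was at -1.90, -1.66 and -0.02 in the same glands. Of 9 probed atypical receptors, chemerin and chemokine-like genes, 7 were detected and 0 were 2-fold apart from parotid in either gland. Cklf, a chemokine-like factor, was at 2.21 in sublingual, 1.25 in submandibular-labelled and 1.34 in parotid.

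Chemokine genes arose by tandem duplication, and 30 of the 45 members lie in 7 clusters in which neighbouring probes are at most 1 Mb apart in rn4. Neighbours differed in direction in some clusters. On chromosome 14, Cxcl2, Cxcl1, Cxcl4, Cxcl7 and Cxcl5 span 148 kb, and in sublingual Cxcl4 was 4.08-fold higher than in parotid while Cxcl1 was 3.94-fold lower. On chromosome 5, Ccl27, Ccl19 and Ccl21b span 39.4 kb, and Ccl19 was above parotid while Ccl21b was below. On chromosome 10, Ccl2, Ccl7, Ccl11 and Ccl12 span 64.5 kb, and in sublingual Ccl2 was 1.04-fold apart from parotid while Ccl7 was 3.25-fold lower. The neighbours Cxcl11, Cxcl10 and Cxcl9, within 36.7 kb on chromosome 14, were all lower.

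**Figure D5:**
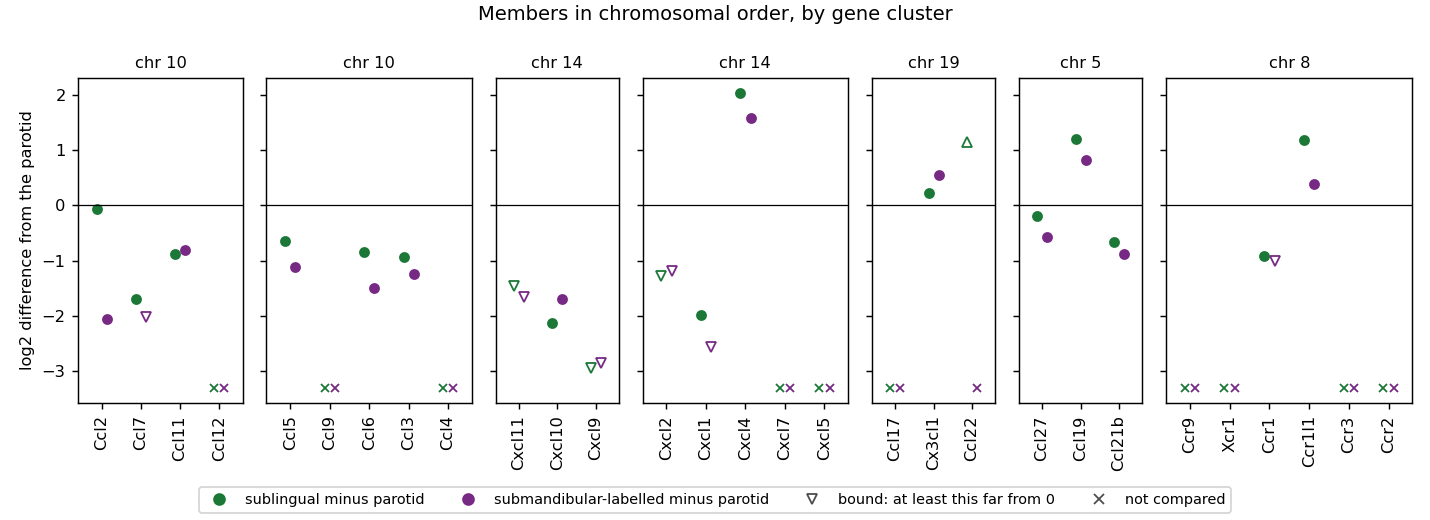
Difference from parotid on the log2 scale (vertical axis) of the members of each genomic cluster (29 of the 30 clustered genes), in order along the chromosome by rn4 probe position but evenly spaced (horizontal axis), in sublingual and in submandibular-labelled; triangles are bounds and crosses at the bottom mark genes that were not compared. In the cluster that begins with Cxcl2, Cxcl4 lies above 0 and Cxcl1 and Cxcl2 lie below.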

How the data were processed

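RNA from the sublingual, submandibular and parotid glands of male Wistar rats was hybridised to 3 arrays with 1 colour, 1 per gland, and samples were grouped by the gland in their labels. Per the labels' protocols, 500 ng of total RNA was labelled with Cy3. The intensity values deposited per spot (processed signal, mean signal and local background) came, per the file headers, from Agilent Feature Extraction 10.1.1.1, protocol GE1-v5_10_Apr08, design 014879, with probe positions in rn4 and spatial and multiplicative detrending on. Other deposited columns are flags per spot. The series' deposited value table holds a linear ratio. Compared over 43379 matched spots, it was the processed signal over 250 for sublingual, 236 for submandibular and 190 for parotid, within 0.0142 (log2) where the signal passed 1000. Its column medians were 0.128, 0.122 and 0.152 in the same order, it was not centred by gene, and its direction is that of the signal.

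For the main values, the log2 processed signal was reduced by the 75th percentile over 41012 probes of its own array (244, 228 and 186 in signal, in the same order). Controls were dropped, as were spots flagged as outliers (73, 79 and 68), and repeat spots of a probe were averaged. No spot was saturated. A gene was a distinct gene name, with the suffix for predicted or mapped removed, shown by its probe with the highest mean level. Members' names were looked up in RefSeq GRCr8, 44 probes by accession and 7 by symbol. Another 9 probes of 7 family genes stand under older names in the files and are not members. No test was made, since each gland has 1 array, and precision is limited by the number of arrays. There was 1 slide and 1 scan, and the position of an array on it cannot be told apart from its gland.

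Members, lists and roles were chosen with earlier results of these data known. The rule for named genes took each member well above background on at least 1 array, and up to 4 genes per other list by size of difference, with defining markers, and 1 detected member enters the counts but is not reported here by itself. The settings tried beside these were background correction by normexp (offset 50, limma 3.58.1, R 4.3.3), median centring, quantile normalization, the deposited ratios, the median of a gene's probes, no filter or bound, well above background on all arrays, a 4-fold threshold, single probes and reference gene names. Python 3.11.15, pandas 2.3.3 and numpy 2.4.6 were used, and counting was tested on simulated data.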

Additional observations from a re-analysis of the deposited data

How the results depend on the processing

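With 1 array per gland, no value below has an error between animals, and faint members are limited by signal over background. No paired analysis was possible because each gland has 1 array and the labels give no animal. Of the called differences from parotid, 5 of 15 in sublingual (Cxcl1, Cxcl4, Cxcl9, Cxcl10 and Cxcl12) and 8 of 14 in submandibular-labelled (Ccl2, Ccl6, Cxcl1, Cxcl4, Cxcl9, Cxcl10, Cxcl12 and Cxcl14) were past 2-fold in every setting that gave them a value, and so was Ccl2 in sublingual over submandibular-labelled. With 1 probe or the median of probes per gene, the called member differences kept their sign, while with single probes the second probe of Ccl22 ran the other way. Signs changed for 4 uncalled members in sublingual against parotid (Ccl2, Ccl24, Ccl27 and Cx3cl1) and 2 in submandibular-labelled against parotid (Ccr1l1 and Cx3cr1).

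In sublingual against parotid, the 6 higher members became 3 with normexp correction and 1 at 4-fold, and the 9 lower became 4 with normexp, 3 with the filter on all arrays and 2 at 4-fold. In submandibular-labelled against parotid, the 2 higher became 4 with median centring, 4 with no filter or bound and 0 at 4-fold. The 12 lower became 6 with normexp, 19 with no filter, 6 with the filter on all arrays and 5 at 4-fold. In sublingual against submandibular-labelled, the 2 higher became 1 with normexp, with the median of probes, with the filter on all arrays and at 4-fold, and 6 with no filter, and the 0 lower became 1 with no filter. The median of the serous list in sublingual against submandibular-labelled was 1.06 and became -0.14 with the filter on all arrays, which leaves fewer genes. The causes of the other changes were not tested. The remaining counts, including those from the deposited ratios, quantile normalization, single probes and reference names, stayed within 1.5 times.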
